A study of Rattus norvegicus with 18 samples.

Results

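The fatty acid desaturases and elongases described here are 8 genes of 18926 measured in rat liver across birth. They were taken by gene symbol, with the brightest transcript cluster (the probe set of a whole gene) standing for each, and each of the 8 symbols had 1 cluster. Scd, Scd2, Elovl1 and Elovl3 form the saturated and monounsaturated branch, and Fads1, Fads2, Elovl2 and Elovl5 the polyunsaturated branch. Affymetrix Rat Transcriptome 1.0 arrays, 18 in all, profiled whole liver of Sprague Dawley rats in 6 groups of 3. One group was fetal, at embryonic day 21 (E21), and 5 were postnatal, at 30 min, 4 h, 12 h, 1 day and 7 days of age. E21 fetuses were delivered by C-section and killed before they breathed, whereas the other pups came from dams watched for the time of birth. No age carried a treatment or an altered genotype, and dams had free access to food and water. The 3 samples of an age come from separate dams per the series design, and the number and sex of pups behind each are not given in the sources used here.

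Desaturases insert an unsaturated bond into a fatty acid bound to coenzyme A, and elongases carry out the rate-limiting condensation that lengthens it. Scd and Scd2 make monounsaturated oleic and palmitoleic acid from saturated precursors, mostly for triglyceride and membrane lipid. Fads2 and Fads1 act in turn, with Elovl5 and Elovl2, on the plant-derived linoleic and alpha-linolenic acids of the diet to build arachidonic and docosahexaenoic acid. In liver several of these genes are known targets of SREBP-1c, the insulin-responsive activator of lipid synthesis, and some are also targets of LXR and PPAR alpha. Milk fat begins to reach the pup's liver after the first feeds.

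After birth the mean changes of the branches separated. Scd2 by 12 h and Scd by 1 day had fallen more than 4 log2 units below their fetal means. Elovl5 rose by about 3, and Fads1 and Fads2 ended within 1 log2 unit of their fetal means. By limma's moderated F test over the 6 ages, 5 of the 8 genes passed (adjusted p under 0.05, Benjamini-Hochberg over all genes), against 31.3% of all genes tested. The 5 were Scd2 (adjusted p = 6.5e-07), Elovl5 (8.84e-06), Scd (6.03e-05), Elovl1 (0.000121) and Elovl2 (0.03). Fads1 (0.46), Fads2 (0.447) and Elovl3 (0.672) did not pass. Levels below are log2 of the deposited intensity, given for replicates 1, 2 and 3 in that order. Probe sets differ in brightness, so changes and not levels are set side by side between genes. Readings of 14 genes taken to be silent in liver had their 95th percentile at 6.43, which serves as a rough floor. On 7 day replicate 3, exocrine pancreas genes of that list read far above it, Ctrb1 at 17.80 and Cpa1 at 14.74. At 7 days against E21, 4 of the 8 genes passed both with and without that array.

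**Figure D1:**
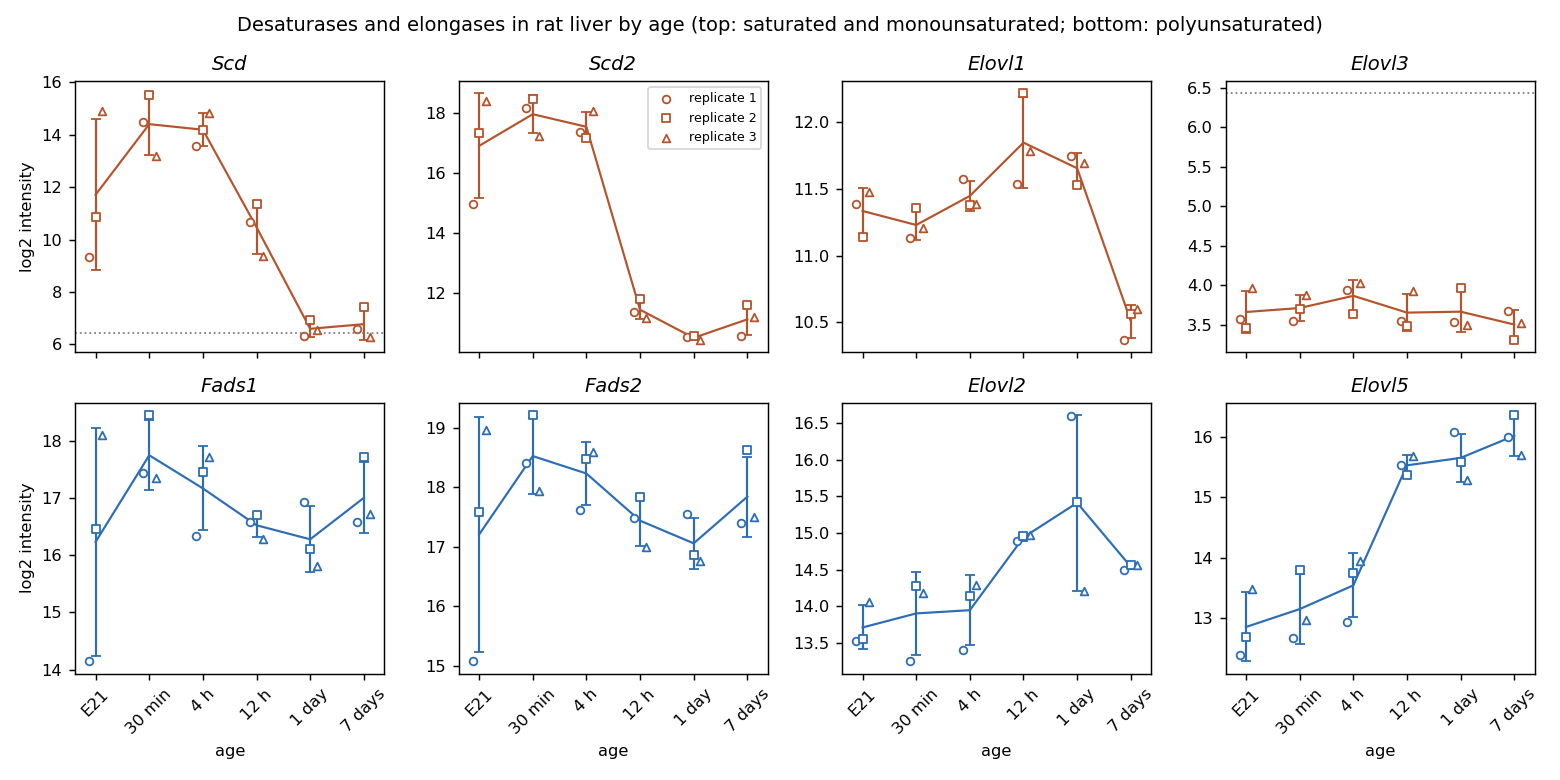
Log2 intensity of the 8 genes (one panel each, y axes scaled separately) at the 6 ages in rat liver. Open markers are single arrays by replicate number, lines join age means, bars are SD (n = 3), and the dotted line is the floor of 6.43. Scd2 drops between 4 h and 12 h, Scd reaches the floor by 1 day, Elovl5 steps up at 12 h, and Elovl3 stays under the floor on all arrays.

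The promoters of the 5 genes on which the results turn are shown, from 250 bases before the gene start to 50 after it, as RefSeq gives them for build GRCr8. Scd2 lies at chr1:253118127-253118426 (plus strand), Scd at chr1:253231682-253231981 (minus strand), Fads1 at chr1:216252442-216252741 (plus strand), Fads2 at chr1:216171984-216172283 (minus strand) and Elovl5 at chr8:87670914-87671213 (plus strand). Capitals mark CCAAT (written ATTGG where it lies on the other strand) and CAGATTGTG, a sterol element known from mouse Scd genes.
Scd2: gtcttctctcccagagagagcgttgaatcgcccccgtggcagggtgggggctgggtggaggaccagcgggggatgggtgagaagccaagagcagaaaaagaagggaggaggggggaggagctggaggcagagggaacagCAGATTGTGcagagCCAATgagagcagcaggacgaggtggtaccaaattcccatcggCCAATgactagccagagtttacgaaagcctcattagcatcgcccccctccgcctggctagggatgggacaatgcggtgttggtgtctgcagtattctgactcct
Scd: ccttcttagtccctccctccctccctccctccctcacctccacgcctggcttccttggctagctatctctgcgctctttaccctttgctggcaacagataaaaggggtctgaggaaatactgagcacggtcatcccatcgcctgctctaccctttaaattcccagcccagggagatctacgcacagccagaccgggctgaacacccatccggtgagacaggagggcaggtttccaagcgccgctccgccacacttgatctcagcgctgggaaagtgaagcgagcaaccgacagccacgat
Fads1: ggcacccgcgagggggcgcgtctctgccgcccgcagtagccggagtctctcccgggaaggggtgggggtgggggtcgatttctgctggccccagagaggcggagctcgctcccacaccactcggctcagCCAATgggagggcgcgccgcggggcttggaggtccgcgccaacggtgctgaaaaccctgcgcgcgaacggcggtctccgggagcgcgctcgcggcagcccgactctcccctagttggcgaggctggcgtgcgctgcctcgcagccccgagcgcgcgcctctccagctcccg
Fads2: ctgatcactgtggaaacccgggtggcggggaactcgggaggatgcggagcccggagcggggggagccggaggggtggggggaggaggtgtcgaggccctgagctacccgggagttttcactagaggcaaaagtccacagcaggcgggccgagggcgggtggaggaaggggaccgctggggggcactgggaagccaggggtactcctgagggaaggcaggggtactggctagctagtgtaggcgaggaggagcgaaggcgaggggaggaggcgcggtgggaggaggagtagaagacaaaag
Elovl5: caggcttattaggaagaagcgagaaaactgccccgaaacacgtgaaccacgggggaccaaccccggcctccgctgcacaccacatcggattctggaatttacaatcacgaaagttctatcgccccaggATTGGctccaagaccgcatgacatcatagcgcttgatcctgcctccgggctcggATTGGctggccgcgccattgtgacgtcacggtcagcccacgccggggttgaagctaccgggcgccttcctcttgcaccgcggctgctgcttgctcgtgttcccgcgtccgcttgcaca

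Both strands were searched for 5 motifs, and no marked matches overlap. CAGATTGTG, found in 0.29% of 33469 promoters of this length, was in the Scd2 window at -111 from the start, followed by CCAAT at -97 and -54. CCAAT, found in 37.5% of promoters, was also in the Fads1 window at -121 and, on the other strand, in the Elovl5 window at -122 and -68. The Scd and Fads2 windows held neither. The GC box GGGCGG (33.1% of promoters) was in the Fads1 and Fads2 windows, and CACGTG (6.42%) in that of Elovl5. CACCCCAC, the sterol element of the LDL receptor type (2.7%), was in none of the 8 genes' windows. These matches are letters in a window and were not tested as binding sites. In the order of genes of GRCr8, Scd3, Scd2, Scd4 and Scd follow each other on chromosome 1, as do Fads3, Fads2 and Fads1.

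Scd2, in the mouse the main delta-9 desaturase of the newborn liver, showed the largest changes of the 8 genes at 12 h, 1 day and 7 days against E21, while the range of age means was 7.80 for Scd and 7.44 for Scd2. It read 14.98, 17.33 and 18.40 at E21, 18.17, 18.46 and 17.25 at 30 min, and 17.38, 17.16 and 18.07 at 4 h. At 12 h it read 11.37, 11.81 and 11.18, at 1 day 10.54, 10.57 and 10.45, and at 7 days 10.57, 11.61 and 11.22. All 9 arrays from 12 h onward lay below all 9 arrays of E21, 30 min and 4 h. Against 4 h, the level at 12 h was lower by a log2 change of -6.08 ± 0.60 (SE), or 67.8-fold, with an adjusted p of 2.05e-05 (limma). Of the 18 Scd2 readings 8, all 3 of 4 h among them, lay above 16, the log2 ceiling of a 16-bit scanner, and compression of such high values was not tested. Against E21 the log2 change was -5.45 at 12 h (adjusted p = 0.000102), -6.38 at 1 day (5.42e-05) and -5.77 at 7 days (7.66e-06). The 1 day arrays all lay below the 12 h arrays, but that step of -0.94 did not pass (adjusted p = 0.917).

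Scd is the delta-9 desaturase that dominates in adult mouse liver. Like Scd2, it had its lowest age mean at 1 day. It read 9.34, 10.88 and 14.91 at E21, 14.50, 15.53 and 13.18 at 30 min, and 13.58, 14.16 and 14.83 at 4 h. It then read 10.66, 11.37 and 9.38 at 12 h, 6.31, 6.95 and 6.53 at 1 day, and 6.59, 7.45 and 6.29 at 7 days. The 12 h arrays lay below those of 4 h and inside the wide range of E21, and the 1 day and 7 day arrays lay below every array of E21 to 12 h. At 12 h the log2 change against 4 h was -3.72 ± 1.01 (SE; adjusted p = 0.0319). That call was lost when any 1 of the 4 h arrays was left out (adjusted p from 0.0616 to 0.0867), without 12 h replicate 1 (0.086) or 12 h replicate 3 (0.111), and with dim values raised to the floor (0.076). Against E21, Scd was lower by -5.11 ± 1.01 at 1 day (adjusted p = 0.00914) and by -4.93 ± 1.01 at 7 days (0.00227). The 1 day call did not pass in a fit of those 2 ages alone (0.107). At each of those ages 1 of the 3 arrays lay under the floor, and with such readings raised to it the changes were -5.07 and -4.89. The step of -3.87 at 1 day against 12 h, where arrays did not overlap, did not pass (adjusted p = 0.299; 0.037% of all genes passed there).

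Relative to E21, the Scd change minus the Scd2 change was 1.64 ± 0.57 at 30 min and 1.84 ± 0.41 at 4 h. It was 4.21 ± 0.72 at 12 h, 1.27 ± 0.30 at 1 day and 0.84 ± 0.50 at 7 days (SD, n = 3 arrays). From 12 h on both genes lay below their E21 means, so these values mean that Scd fell less. At 1 day and 7 days Scd read near the floor, which limits how far its fall could be read. The paralogs were furthest apart at 12 h. The E21 arrays themselves had an SD of 1.53 in this difference, which exceeds the 1 day and 7 day values. Without E21 replicate 3, left out after seeing the data, it was 2.13 at 1 day and 1.69 at 7 days, and without E21 replicate 2 it was 0.64 and 0.21. Over the 18 arrays their levels correlated at 0.905, and their deviations from the age means at 0.869. Signal of one paralog on the probes of the other was not tested, since probe sequences were not used here.

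Elovl1 and Elovl3 lengthen saturated and monounsaturated fatty acids, Elovl1 toward the very long chains of sphingolipids. Elovl1 read 11.38, 11.14 and 11.48 at E21, 11.13, 11.36 and 11.20 at 30 min, and 11.58, 11.38 and 11.39 at 4 h. Its later readings were 11.54, 12.22 and 11.79 at 12 h, 11.75, 11.53 and 11.69 at 1 day, and 10.37, 10.56 and 10.60 at 7 days. Up to 1 day its arrays stayed within about 1 log2 unit, and the 7 day arrays lay below all others. Elovl1 was lower at 7 days by -1.15 ± 0.15 against 1 day (SE; adjusted p = 8.59e-05) and by -0.83 ± 0.15 against E21 (0.000798). The increase of 0.51 at 12 h against E21, with no overlap of arrays, did not pass (0.0546), but passed without 12 h replicate 1 (0.67, adjusted p = 0.02) and with dim genes (below the median of mean levels) left out (0.0389). Elovl3, known in the mouse from brown fat, skin and adult liver, read 3.31 to 4.02 on the 18 arrays. It lay under the floor throughout, so no change in it could be measured.

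Bulk liver mixes cell types, and fewer cells of a type and less RNA per cell cannot be told apart. At 7 days against 1 day, when Elovl1 fell, 18.2% of all genes passed (10% lower). Of 11 measured erythroid markers 11 fell too, by a median of -4.40. The mean log2 level of those markers ran from 8.10 to 9.08 over the 7 day arrays, and from 11.34 to 12.96 over the arrays of earlier ages. Neutrophil markers fell in 7 of 8, and macrophage markers rose in 7 of 10. Endothelial markers rose in 5 of 8 (median 0.94) and stellate cell markers in 5 of 7 (median 1.36). Their part in the Elovl1 fall was not tested. Hepatocyte markers (12 measured) held a mean of 17.27 to 17.61 on all arrays. These means lay above 16, the log2 ceiling of a 16-bit scanner, and compression of such high values was not tested. None of the 12 passed at 12 h or 1 day against E21, where 5.94% and 5.08% of all genes did. At 7 days against E21, where Scd2, Scd and Elovl5 also passed, 3 of the 12 were higher (12.8% of all genes) and 2 lower (10%). Of 7 adipocyte markers 5 lay under the floor on all arrays of each age up to 1 day, and 6 at 7 days.

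Fads2 and Fads1, the delta-6 and delta-5 desaturases of the polyunsaturated branch, passed no comparison. Fads1 read 14.14, 16.46 and 18.09 at E21, 17.43, 18.45 and 17.35 at 30 min, and 16.33, 17.45 and 17.71 at 4 h. Later it read 16.57, 16.70 and 16.29 at 12 h, 16.92, 16.10 and 15.80 at 1 day, and 16.57, 17.71 and 16.72 at 7 days. All postnatal arrays lay inside the E21 range except 30 min replicate 2, which lay above it. At 1 day, the age of the Scd2 minimum, the Fads1 change against E21 was 0.05, with a 95% confidence interval from -1.46 to 1.55 (adjusted p = 0.991). At 7 days it was 0.77, with an interval from -0.74 to 2.28. The intervals leave room for changes of over 1 log2 unit either way at 1 day, but reach neither the Scd2 nor the Scd change.

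Fads2 followed Fads1 array by array. Its readings were 15.07, 17.59 and 18.96 at E21, 18.42, 19.22 and 17.95 at 30 min, and 17.62, 18.48 and 18.60 at 4 h. They were 17.48, 17.84 and 17.00 at 12 h, 17.55, 16.86 and 16.76 at 1 day, and 17.41, 18.62 and 17.50 at 7 days. Again the E21 range held all later arrays but 30 min replicate 2. The Fads2 change against E21 was 0.23 at 12 h (interval -1.25 to 1.71), -0.15 at 1 day (-1.63 to 1.33) and 0.64 at 7 days (-0.84 to 2.12). The correlation of the 2 genes over the 18 arrays was 0.983 for levels and 0.984 for deviations from the age means. Their difference relative to E21 stayed between -0.09 and 0.19 as an age mean. Fads2 came within 0.705 log2 units of the brightest of the 18926 genes on an array. Of 18 readings, 17 of Fads2 and 16 of Fads1 were above 16.

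Elovl5, which lengthens the products of Fads2, rose mainly between 4 h and 12 h. It read 12.38, 12.69 and 13.49 at E21, 12.67, 13.80 and 12.97 at 30 min, and 12.94, 13.75 and 13.94 at 4 h. From then it read 15.54, 15.36 and 15.69 at 12 h, 16.08, 15.59 and 15.30 at 1 day, and 15.99, 16.37 and 15.70 at 7 days. Every array from 12 h on lay above every earlier one, whereas in Scd2 every such array lay below. At 12 h it was higher by 1.99 ± 0.34 against 4 h (SE; adjusted p = 0.0017) and by 2.68 ± 0.34, or 6.41-fold, against E21 (0.000271). The change against E21 was 2.80 at 1 day (0.000284) and 3.17 at 7 days (9.17e-06). Levels of Elovl5 and Scd2 correlated at -0.880 over the 18 arrays, while their deviations from the age means correlated at 0.544. At E21 replicate 1 was lowest and replicate 3 highest in both genes. At 12 h, by contrast, replicate 2 was highest in Scd2 and lowest in Elovl5.

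Elovl2, which extends the longest polyunsaturated chains on the way to docosahexaenoic acid, moved less. Its readings were 13.52, 13.55 and 14.06 at E21, 13.25, 14.27 and 14.19 at 30 min, and 13.40, 14.14 and 14.29 at 4 h. They were 14.89, 14.96 and 14.98 at 12 h, 16.60, 15.43 and 14.20 at 1 day, and 14.50, 14.57 and 14.56 at 7 days. All arrays of 12 h, 1 day and 7 days lay above those of E21, and the 1 day arrays were the least even, with a range of 2.40. Against E21, the change of 1.70 ± 0.43 at 1 day passed (SE; adjusted p = 0.0336), and those of 1.23 at 12 h (0.124) and 0.83 at 7 days (0.208) did not. In fits of the 2 ages alone those at 12 h (adjusted p = 0.0103) and 7 days (0.0116) passed, and that at 12 h also passed without 1 day replicate 1 (0.0343) or 3 (0.0304). The 1 day call did not pass without 1 day replicate 1 (1.11, adjusted p = 0.123) or 1 day replicate 2 (0.0734), nor without E21 replicate 1 (0.0898), 2 (0.121) or 3 (0.0538). It was also lost with dim values raised to the floor (0.0791), with the replicate block (0.0538), in a fit of those 2 ages alone (0.198) and when 3 arrays found uneven in earlier work (replicate 3 of 30 min and of 4 h, and replicate 1 of E21) were left out together (0.103). Relative to E21, the Elovl5 change exceeded that of Elovl2 by 1.45 ± 0.16 at 12 h, by 1.10 ± 0.81 at 1 day (arrays from 0.34 to 1.95) and by 2.34 ± 0.33 at 7 days (SD, n = 3 arrays).

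**Figure D2:**
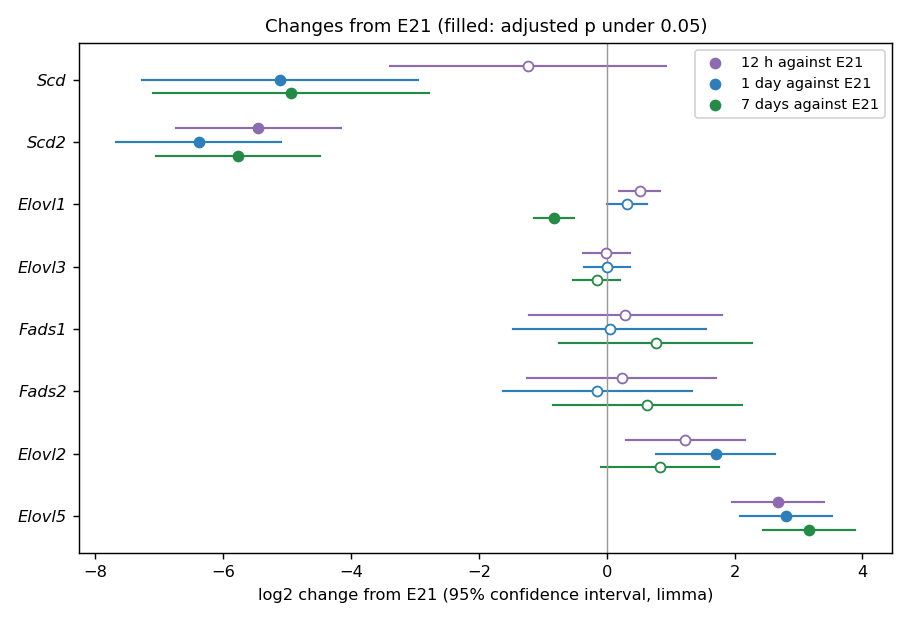
Log2 change against E21 for the 8 genes at 12 h (purple), 1 day (blue) and 7 days (green), with 95% confidence intervals from limma, and filled points where the adjusted p was under 0.05. Scd2 and Scd extend to the left, Elovl5 to the right, and the wide intervals of Fads1 and Fads2 span 0.

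At 30 min against E21 none of the 8 genes passed limma's test, and neither did any other gene (0%), although 1392 genes, Scd and Fads1 among them, had an unadjusted p under 0.05. The median change of the 8 genes was 0.68 at 30 min and 0.66 at 4 h. At 4 h against E21 again none of the 8 passed, against 4.71% of all genes. Scd alone of the 8 had an unadjusted p under 0.05 in limma there, as did 3294 of all 18926 genes. At 4 h against 30 min none of the 8 passed or had an unadjusted p under 0.05. Of all genes 0.983% passed, and 2146 had an unadjusted p under 0.05. At 12 h against E21, 2 of 8 passed against 5.94%, with Elovl5 higher (3.86% of genes) and Scd2 lower (2.08%). At 12 h against 4 h, 3 of 8 passed against 8.9%, with Elovl5 higher (5.08%), and Scd2 and Scd lower (3.82%). At 1 day against 12 h none of the 8 passed limma's test. Scd alone of the 8 had an unadjusted p under 0.05, as did 1213 of all genes.

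At 1 day against E21, 4 of 8 passed against 5.08%, with Elovl5 and Elovl2 higher (3.37%) and Scd2 and Scd lower (1.71%). At 7 days against E21, 4 of 8 passed against 22.8%, with Elovl5 higher (12.8%) and Scd2, Scd and Elovl1 lower (10%). At 7 days against 1 day 1 of 8 passed against 18.2%, and this was Elovl1, lower (10%). The comparisons with E21 share its 3 arrays and are not independent of each other. Median changes over all genes lay between -0.01 and 0.02 in the 9 comparisons.

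The difference between branches was then taken per array, as the mean log2 change of Fads1, Fads2, Elovl2 and Elovl5 minus that of Scd, Scd2, Elovl1 and Elovl3, each relative to its E21 mean. It was -0.09 ± 0.35 at 30 min and -0.14 ± 0.46 at 4 h (SD, n = 3 arrays), and 2.65 ± 0.23 at 12 h, 3.89 ± 0.68 at 1 day and 4.27 ± 0.19 at 7 days. The score lay near 0 up to 4 h, and the polyunsaturated mean change was above the other on all 9 later arrays. Elovl3, under the floor, is 1 of the 4 genes of its branch mean. The genes of a branch did not move alike. At 12 h against E21, Scd2 changed by -5.45, Scd by -1.24 and Elovl1 by 0.51. In the polyunsaturated branch Elovl5 changed by 2.68, Elovl2 by 1.23, Fads1 by 0.29 and Fads2 by 0.23. Only Scd2 and Elovl5 passed there. The polyunsaturated mean itself was already 0.83 above E21 at 30 min and 0.72 at 4 h. It was 1.11, 1.10 and 1.35 above E21 at 12 h, 1 day and 7 days. Single E21 arrays ran from -1.22 to 1.15 in this measure, so the 12 h and 1 day means lay inside the fetal range. The saturated and monounsaturated mean was 0.92 at 30 min and 0.86 at 4 h, then -1.55, -2.79 and -2.92. Its E21 arrays ran from -1.08 to 1.29, and its means from 12 h on lay below them. With the desaturases alone the difference was -0.46 at 30 min, -0.58 at 4 h, 3.61 at 12 h, 5.70 at 1 day and 6.05 at 7 days. The Fads1 change minus the Scd change was below 0 on all 6 arrays of 30 min and 4 h. It was -1.18 ± 0.72 at 30 min and -1.55 ± 0.28 at 4 h (SD, n = 3 arrays). The E21 arrays themselves had an SD of 1.23 in this difference, with values from -1.34 to 1.06. Neither Fads1 nor Scd passed at 30 min or 4 h against E21. No test was made of these differences, since their genes were chosen with results known.

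**Figure D3:**
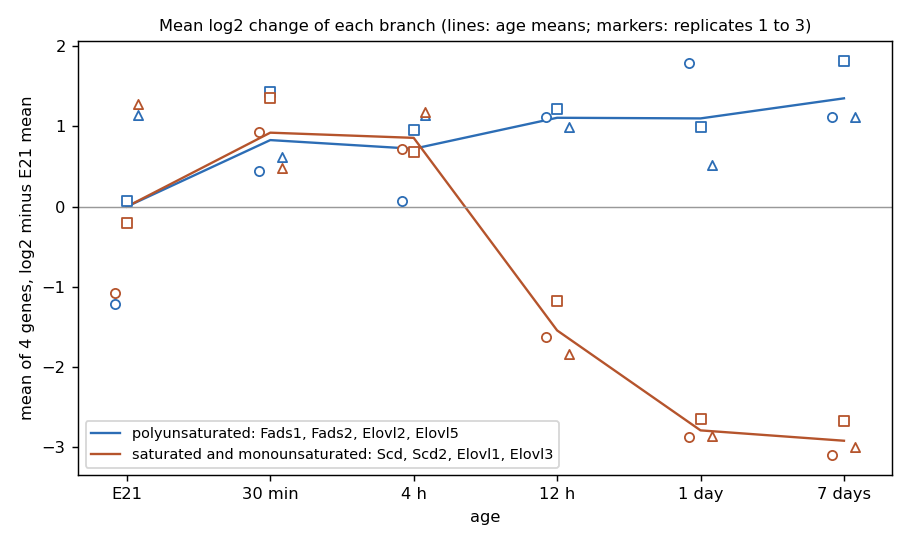
Mean log2 change of 4 genes per branch relative to the E21 mean, against age. Markers are single arrays by replicate number (circle 1, square 2, triangle 3) and lines join age means. The lines overlap to 4 h and part at 12 h, where the difference is 2.65, and the E21 arrays of both branches scatter in the same order.

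The E21 arrays differed widely from each other in 4 of the 8 genes. The range over the 3 arrays was 5.57 log2 units in Scd, 3.95 in Fads1, 3.88 in Fads2 and 3.42 in Scd2, with replicate 1 lowest and replicate 3 highest in each. The median range over all genes was 0.29, and 50 genes (0.264%) had a range over 3 log2 units. Besides these 4, Elovl6 (4.37), Fasn (4.29), Acss2 (4.04) and Acly (3.21), which make and lengthen saturated fatty acids, were spread in the same order. Pck1, the gluconeogenic enzyme induced at birth, read 18.06, 12.87 and 12.48 in these arrays, the opposite order, and was added after its values were seen. Ranges of Elovl1 (0.34), Elovl2 (0.53) and Elovl5 (1.11) were smaller. This spread enters each change against E21. Since the 6 ages share an estimate of the spread per gene, it also enters the SE of comparisons without E21. At 1 day against 12 h the SE was 1.01 for Scd and 0.60 for Scd2, as in the comparisons with E21. Without replicate 3 the Scd change at 1 day was -3.51, and without replicate 1 it was -6.30. For Scd2 at 12 h these values were -4.70 and -6.41, and for Elovl5 at 12 h they were 3.00 and 2.44, and all 3 genes passed either way. Fads1 at 12 h was 1.22 without replicate 3 and -0.75 without replicate 1, and Scd at 12 h was 0.36 and -2.42, with none of these 4 past the threshold. Scd at 4 h against E21, at 2.48 with all arrays (adjusted p = 0.204), passed without replicate 3 (4.08, 0.00744). What sets the E21 arrays apart was not tested.

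**Figure D4:**
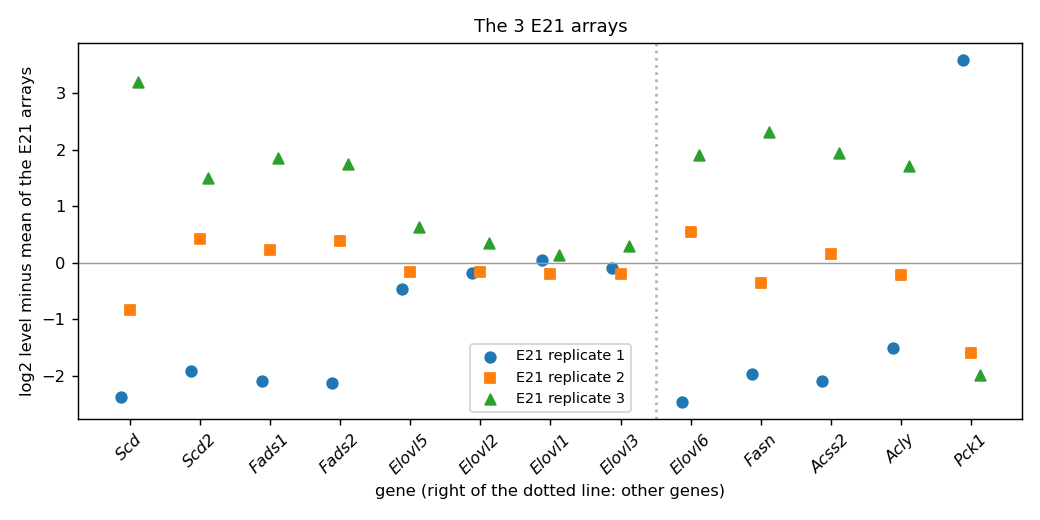
Log2 level of each E21 array minus the mean of the 3 E21 arrays, for the 8 genes and, right of the dotted line, Elovl6, Fasn, Acss2, Acly and Pck1. Replicate 3 (triangles) is highest and replicate 1 (circles) lowest in Scd, Scd2, Fads1, Fads2, Elovl6, Fasn, Acss2 and Acly, and the order is turned round in Pck1.

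Genes with the most similar course were found by Pearson correlation over the 18 arrays, which share ages and the E21 spread. Nearest to Scd were C2h4orf3 (0.951), Aph1bl2 (0.909) and Aph1b (0.905), and nearest to Scd2 were Spring1 (0.952), Bicc1 (0.947) and Prkar1b (0.945). Spring1, a known regulator of SREBP processing, read under the floor on every array from 12 h on. Fads1 and Fads2 were nearest to each other, then to Rab7a (0.810 for Fads1 and 0.815 for Fads2), ahead of Pnpla3 (0.793) for Fads1 and Fdps (0.813) for Fads2. Elovl5 was nearest to Clptm1l (0.943), Paqr7 (0.937) and Mapk9 (0.936), Elovl2 to Tmem135 (0.907), Sel1l3 (0.897) and Fzd4 (0.878), and Elovl1 to Bap1 (0.885), Odc1 (0.877) and LOC297756 (0.871). None is named for Elovl3, whose readings all lay under the floor.

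Among 8 other desaturases and elongases measured, 1 passed at 12 h against E21, Scd4, whose readings were all under the floor. Degs2, a sphingolipid desaturase, was lower at 7 days by -1.65 (adjusted p = 0.00589). Elovl6, which lengthens palmitic acid before desaturation, changed by 0.24 at 12 h (adjusted p = 0.946) and -1.05 at 7 days (0.4), and passed no comparison. The elongation cycle is completed by a reductase, a dehydratase and a second reductase. Of 5 such genes none passed at 12 h, Hsd17b12 was higher at 1 day by 0.88 (0.0103), Tecr was higher at 7 days by 0.72 (0.0322), and Hacd4 was lower at 7 days by -0.64 (0.0198). Of 6 genes that pass electrons to desaturases through cytochrome b5, none passed at 12 h or 1 day. Cyb5r3 (1.01, adjusted p = 0.0441) and Cyb5a (0.56, 0.0463) were higher at 7 days. Over all genes, 5.94% passed against E21 at 12 h, 5.08% at 1 day and 22.8% at 7 days (12.8% higher and 10% lower). The median change of these 3 lists at 12 h against E21 was 0.13, 0.03 and -0.09, against 0.26 for the 8 genes and 0.01 for all genes.

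Fatty acid synthesis makes the substrate of Scd. At 12 h against E21, where 2.08% of all genes were lower and 3.86% higher, 4 of its 9 genes were lower and none higher: Fasn, the fatty acid synthase, by -3.58 (adjusted p = 0.0302), Acss2 by -2.67 (0.0317), Acly by -2.22 (0.0405) and Acaca by -1.82 (0.00711). The median of the 9 was -0.91. Fasn read 9.22, 8.27 and 8.35 at 12 h, against 10.22, 11.84 and 14.51 at E21. At 7 days against E21, Acly (-2.19, adjusted p = 0.0149) and Acaca (-1.18, 0.0277) were still lower (10% of all genes). Fasn (-1.68, 0.227) and Acss2 (-1.62, 0.109) did not pass there, and Mid1ip1 was higher (0.87, 0.0298; 12.8% of all genes). Of 11 genes for fatty acid activation and phospholipid remodelling, 2 were lower at 12 h, Acsl4 (-1.57, adjusted p = 0.00131), which activates arachidonic acid, and Acsl3 (-0.89, 0.0294). Lpcat3, which places polyunsaturated chains into phospholipid, was lower at 1 day (-1.39, 0.0125).

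Peroxisomal enzymes shorten the products of Elovl2 in the last step to docosahexaenoic acid. Of 8 measured, 4 were higher at 12 h against E21 (3.86% of all genes) and none lower (2.08%): Acaa1b (2.09, adjusted p = 0.0343), Abcd3 (1.94, 0.00183), Abcd2 (1.92, 0.00299) and Acaa1a (1.40, 0.038). Abcd2, a transporter of very long chain acyl groups into the peroxisome, read 14.12, 13.83 and 14.53 at 12 h, against 12.32, 11.67 and 12.73 at E21. At 7 days Abcd2 was higher than at E21 by 2.08 (adjusted p = 0.000373), while Abcd3 (0.81, 0.082), Acaa1a (0.49, 0.42) and Acaa1b (0.24, 0.839) did not pass. At 1 day Abcd3 passed (1.47, adjusted p = 0.0145), and Acaa1a (1.33, 0.0524) and Acaa1b (1.92, 0.0567) did not.

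Of 15 measured regulators of desaturase transcription, 4 were lower at 12 h against E21 (2.08% of all genes) and 1 higher (3.86%). Insig1, itself a target of SREBP that retains it in the endoplasmic reticulum, was lower by -5.69 (adjusted p = 1.59e-05), with readings of 7.53, 8.75 and 8.65 at 12 h, against 13.88, 13.47 and 14.63 at E21. Srebf1, which encodes SREBP-1, was lower by -1.90 (0.0446), Srebf2 by -1.44 (0.000182) and Ppargc1b, a coactivator of SREBP-1, by -1.40 (0.0291), while Nr1h3, which encodes LXR alpha, was higher by 0.93 (0.0488). At 7 days against 1 day Srebf1 was higher by 2.10 (adjusted p = 0.0107), Srebf2 by 1.79 and Mlxipl, which encodes ChREBP, by 1.52 (0.00397). Over that step the Scd change was 0.18 (95% interval -1.98 to 2.34) and the Scd2 change 0.61 (-0.67 to 1.90), neither of which passed. Ppara, which encodes PPAR alpha, passed none of the 9 comparisons.

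**Figure D5:**
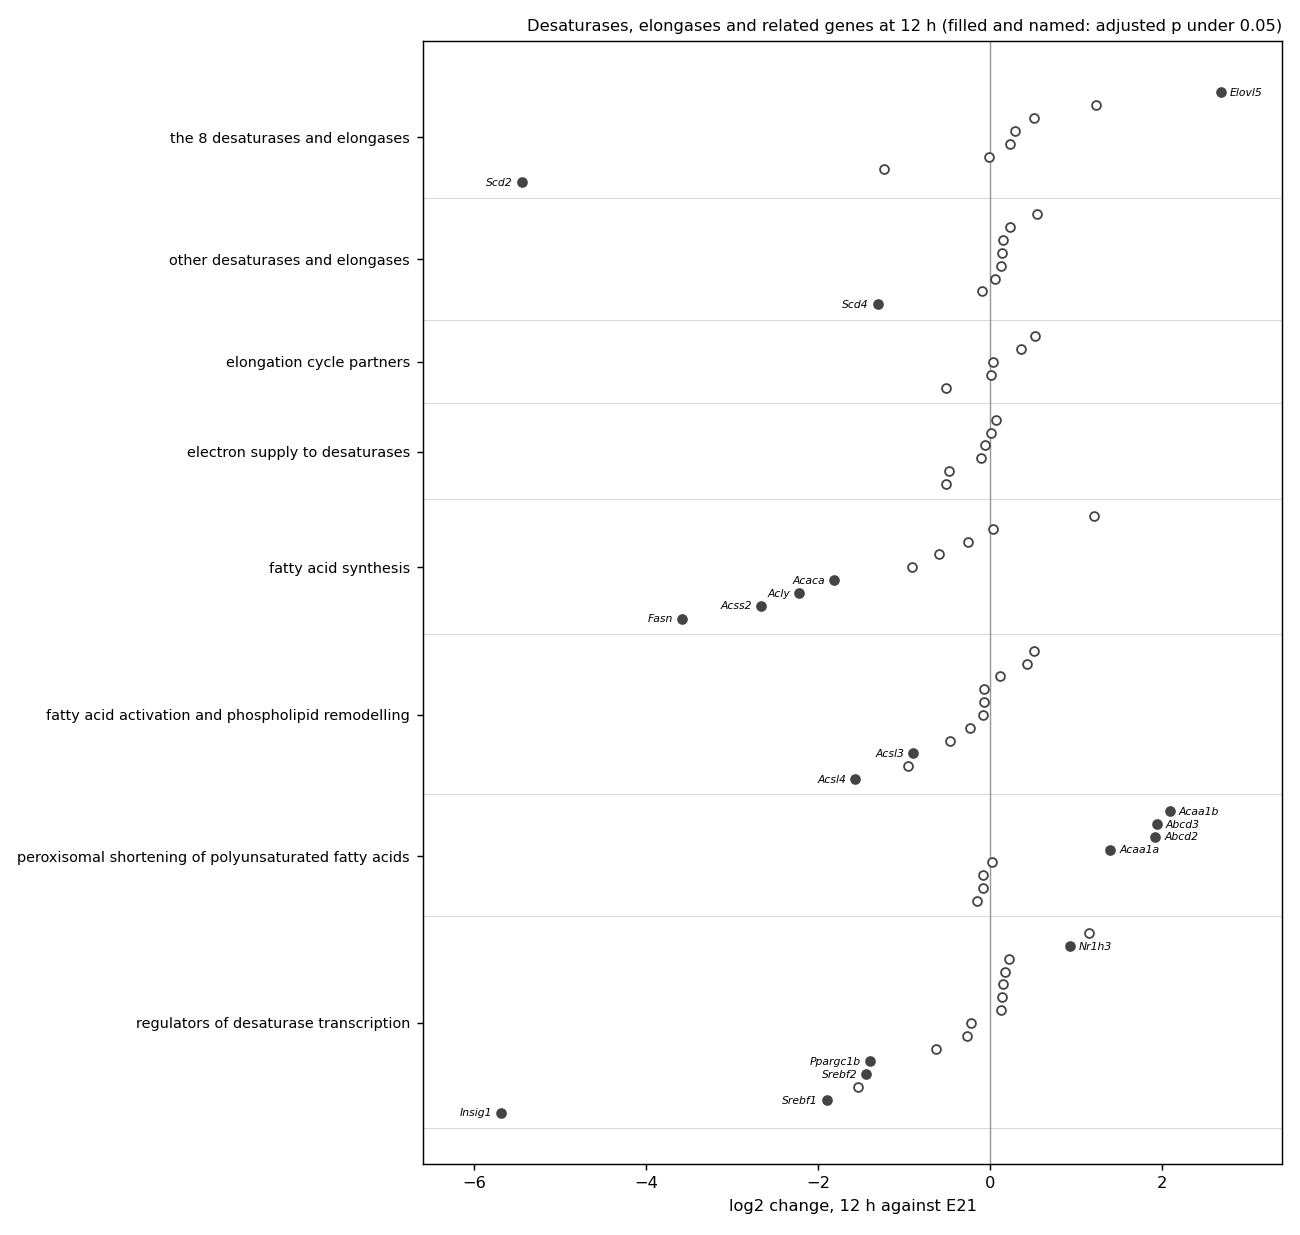
Log2 change at 12 h against E21 of each measured gene of the 8 desaturases and elongases and 7 related lists, one point a gene. Filled and named points had an adjusted p under 0.05 in limma over all genes. Filled points of fatty acid synthesis and of the regulators lie mostly left of 0 with Scd2, and those of the peroxisomal list right of 0 with Elovl5.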

How the data were processed

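Total RNA from 18 rat liver samples was measured, 3 arrays per age. The authors deposited 1 intensity per transcript cluster and array. The submitters' processing notes name Affymetrix Expression Console 1.0 and RMA but not how either was applied. The table was linear (4.24 to 999969, array medians 61.9 to 65.5), with 272 to 328 features per array above 65535, which the notes do not explain. Folds are those of that scale, and no detection call was used. The annotation release was not given in the sources used here.

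Of 24753 features, 19837 had 1 symbol, 420 several and 4496 none. The brightest feature stood for each of 800 genes with more than 1. Values were converted to log2 here (added constant 0) and not normalized again, as the design allowed for linear values. Limma 3.58.1 (R 4.3.3) fitted a mean per age over all 18 arrays (12 residual and 3.05 prior degrees of freedom). Tests were two-sided, adjusted over 18926 genes by Benjamini-Hochberg, threshold 0.05, and the script was tested on simulated data. The 3 arrays per age limit the precision. Replicates correlated at 0.987 to 0.994 over genes, and p-values measure only the spread between these samples.

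The 8 genes and all lists were chosen with earlier results of these data known. The 8 were named by symbol, listed genes where they passed, and the 3 nearest genes by correlation. Alternatives were normalization, prior, array weights, filters, a floor, replicate block and arrays left out. Same-numbered arrays correlated over 0.1 in all 3 pairs only for 4 h against E21 (0.11 to 0.29) and 12 h against 4 h (0.15 to 0.30), and from -0.14 to -0.03 for 12 h against E21, so the numbers were not taken to pair arrays.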

Additional observations from a re-analysis of the deposited data

How the results depend on the processing

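The 14 changes of single genes that passed were refitted 395 times under the alternatives: 379 refits passed, 16 did not and none changed direction. Those 16 concern Elovl2 at 1 day against E21, Scd at 12 h against 4 h and Scd at 1 day against E21. Of 1628 refits of changes that had not passed, 10 passed. At 1 day against E21, 2 of the 8 genes passed in a fit of these 2 ages alone, against 4 over all arrays, with Scd at an adjusted p of 0.107 and Elovl2 at 0.198. Without E21 replicate 3, 1 gene passed at 4 h against E21 (Scd), against 0 with all arrays. Without 1 day replicate 3, 2 genes passed at 7 days against 1 day, since Elovl2 was then lower by -1.48 (adjusted p = 0.0113). Each of these fits used fewer arrays, and no other cause was tested. With the desaturases alone, the polyunsaturated minus monounsaturated difference was -0.46 at 30 min, -0.58 at 4 h, 3.61 at 12 h, 5.70 at 1 day and 6.05 at 7 days. With the replicate block, 4 genes passed over the 6 ages in place of 5, and 3 at 1 day against E21 in place of 4. In fits of 2 ages with the block, added after seeing the data, 0 passed at 4 h against E21 and 3 at 12 h against 4 h. Elovl3 dropped out where genes below the median of mean levels were left out. With 3 arrays per age and the E21 spread, changes in Fads1 and Fads2 of 1 log2 unit were not detectable.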
